A study of Mus musculus with 6 samples.

Results

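Ribosomal RNA (rRNA) joined to rRNA was described from 4 libraries of MARIO, an assay in which RNA ends held close together in cells are ligated through an RNA linker to give a chimeric molecule, RNA1–Linker–RNA2. Members were all read pairs whose RNA1 and RNA2 fragments both carried the deposited type rRNA, which gave 510108 of the 8319389 read pairs of the 4 libraries, out of 10479650 in the 6 libraries of the series. Collapsing read pairs with equal coordinates at both fragments left 153927 distinct pairs, of which ES-1 held 326, ES-2 134, ES indirect 153148 and MEF 319. ES-1, ES-2 and ES indirect came from E14 mouse embryonic stem cells, a single line of strain 129/Ola, and MEF from embryonic fibroblasts of strain C57Bl/6, with no genotype or drug given for any of them. Ultraviolet light (254 nm), which joins RNA to the protein it touches, was the crosslink of ES-1, ES-2 and MEF. Formaldehyde with EGS, a pair of chemicals that link proteins to one another as well, was that of ES indirect. RNA was cut with RNase I in the ultraviolet libraries, which the labels put at about 1000 nt for ES-1 and ES-2 and about 300 nt for MEF, and by sonication in ES indirect, also put at about 1000 nt. For ES-1 the methods of the study differ from the label and give a range that reaches longer fragments. All 4 libraries were depleted of rRNA, ES-1 and ES indirect by a duplex-specific nuclease, ES-2 and MEF by the GeneRead kit. Crosslink, way of cutting and sequencing run therefore changed together between ES indirect and the ES libraries, and their parts in any difference cannot be told apart.

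The ribosome holds 4 rRNAs. The 18S rRNA is the RNA of the small subunit (SSU), and the 28S, 5.8S and 5S rRNAs are those of the large subunit (LSU). The 18S, 5.8S and 28S rRNAs are cut from a single precursor, the 45S pre-rRNA, which is made in the nucleolus, begins with a long leader (the 5′ external transcribed spacer) and carries a first internal spacer just after the 18S. The 5S rRNA is transcribed from separate genes in many near-identical copies. The rRNAs fold on themselves, are bound by many ribosomal proteins and are the most abundant RNAs of a cell.

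The reference bases next to the ligated ends are shown here for the positions used most often, since the shares of these exact bases differ between the libraries. All are from NCBIM37 (mm9), 30 bases long, 5′ to 3′ on the transcribed strand, with the 10 bases nearest the linker in capitals. For the 18S the coordinates are chr17:39983418-39983447, chr17:39984819-39984848 and chr17:39984283-39984312 (RNA1 ends) and chr17:39984604-39984633, chr17:39984810-39984839 and chr17:39984223-39984252 (RNA2 starts), all on the + strand.
ES-1, RNA1 end: tggtcgctcgctcctctcctACTTGGATAA
ES-2, RNA1 end: gggctgcacgcgcgctacacTGACTGGCTC
ES indirect, RNA1 end: caagacggaccagagcgaaaGCATTTGCCA
ES-1, RNA2 start: TAGCTCTTTCtcgattccgtgggtggtggt
ES-2, RNA2 start: AGATGTCCGGggctgcacgcgcgctacact
ES indirect, RNA2 start: AAGAGGGACGgccgggggcattcgtattgc

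For 5S, the end and the inner join are shown on the gene copy n-R5s108, which is exonic throughout at chr8:126076264-126076382 on the - strand, 119 nt long. The first stretch, chr8:126076261-126076290, ends 3 bases past the annotated gene, and the others are chr8:126076306-126076335 and chr8:126076277-126076306.
5S, RNA1 end most used in ES-1: gcctgggaataccgggtgctGTAGGCTTTT
5S, RNA1 end at the ES indirect join: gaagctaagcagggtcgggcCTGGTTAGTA
5S, RNA2 start at the ES indirect join: ACTTGGATGGgagaccgcctgggaataccg

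Before the results, 2 features of the libraries need to be stated. First, ES-1 and ES-2 shared a pair of flow cells, and ES indirect and MEF shared another pair. In MEF, 1656 of the 2237 distinct pairs with both fragments in the 45S copy described below came from the second flow cell, and in 1646 of them RNA1 lay inside RNA2, shared an end with it and was 10 nt shorter, with both fragments recorded on the same strand. Pairs nested in this way numbered 106 in ES-1, 34 in ES-2 and 73 in ES indirect, but all of those were recorded on opposite strands, the sense direction. The origin of nested pairs was not tested. Distances and order are given for MEF without the 1646 pairs. The 1 nested pair of its first flow cell was in the sense direction and stayed among the sense pairs. Second, the cell type labels were set against marker genes. Names of 10 ES cell genes (Pou5f1, Nanog and others) were carried by 301, 177 and 1073 per 1000000 fragments in ES-1, ES-2 and ES indirect and by 61.1 in MEF. The 10 fibroblast genes, collagens among them, were carried by 205, 126 and 192.6 in the ES cell libraries and 728 in MEF, with Lum at 0 in all 4 libraries and Dcn at 0 in MEF. Both fragments matched the genome at their stated place in 94.96% of member pairs of ES-1 and 95.5% of ES-2, and in 99.9% and 99.5% of those of ES indirect and MEF.

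The deposited type rRNA covered different RNA in different libraries. In ES indirect, every one of the 612149 RNA1 and 807248 RNA2 fragments lying in chr17:39979932-39985783 (5852 nt, + strand) was named Rn45s and typed rRNA. Rn45s is the gene of the 45S pre-rRNA. In ES-1, ES-2 and MEF no fragment there had that name: 95.3%, 97.7% and 84.6% of RNA1 fragments and 97.8%, 98.8% and 94.1% of RNA2 fragments were named SSU-rRNA_Hsa and typed rRNA_repeat, and nearly all others had no name. Of the member pairs of ES-1, ES-2 and MEF, 0 had an end named Rn45s, which allows shares of up to 0.92%, 2.24% and 0.94%. Members therefore made up 0.0141% of all distinct pairs in ES-1 (0.0127 to 0.0157, the 95% Wilson interval, as are all intervals below), 0.0108% for ES-2 (0.00911 to 0.0128), with 9.25% of ES indirect (9.21 to 9.30) and 0.0853% of MEF (0.0764 to 0.0952). The MEF share rested on its second flow cell, which gave 237 of its 319 members: the share was 0.0316% on the first flow cell and 0.206% on the second. The difference between ES indirect and the ES mean was 9.24 percentage points against an SD of 0.00235 (n = 2). When rRNA_repeat was also counted as rRNA, the ES mean was 29.3%, ES indirect 32.9% and MEF 8.28%, and the difference shrank to 3.59 points. Under this count ES-1 stood at 31.6% and ES-2 at 26.9%, so that ES indirect was further from ES-2 than from ES-1 and the difference was smaller than the gap between the ES libraries. A higher share of rRNA pairs and a lower number of other pairs cannot be told apart in such shares. For the precursor, all later comparisons between libraries were made by position and not by name.

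By name, members fell into 4 groups: Rn45s, 5S (115 names), 5.8S (n-R5-8s1 on chromosome 18 and 5_8S_rRNA on chromosome 6) and mmu-mir-2134-4. Names that do not spell 5S, such as AC124193, were put with 5S only where most of their sequence words were also in the n-R5s genes, which kept AC126690 apart, while 5S_rRNA was put there by its name alone. Pairs of Rn45s with itself were 147532 of the 153148 in ES indirect (96.3%). Pairs of 5S with 5S led in the ultraviolet libraries, with 171 of 326 in ES-1 (52.5%), 63 of 134 in ES-2 (47.0%) and 306 of 319 in MEF (95.9%), against 2088 in ES indirect (1.36%). Both fragments read in the gene's direction in all of these pairs of ES-1 and ES-2 and in 2086 of ES indirect, but in 78 of the 306 in MEF (25.5%), and those 78 all came from its first flow cell. Next in ES-1 and ES-2 came 5S joined to mmu-mir-2134-4, with 76 and 38 pairs, and 5S joined to 5.8S, with 59 and 22 pairs. The order of the groups was the same in these ES libraries, which were depleted of rRNA in different ways.

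The name mmu-mir-2134-4 is that of an annotated miRNA gene at chr13:9833715-9833771 on the - strand, and all its fragments lay within chr13:9833620-9833809, although the files typed them rRNA. Fragments within 400 nt of it that lacked this name were all named L1Md_T, a LINE repeat. Its sequence was set against those of fragments named LSU. Of the 16-nt words in its fragments, 100% in ES-1 and 100% in ES-2, with 98.4% in ES indirect and 99.8% in MEF were also found in fragments named LSU, against 0% of the words of 5.8S fragments in ES-1, ES-2 and ES indirect and at most 0.00352% of those of 5S. In fragments named SSU, from 0.699% to 7.68% of its words were found, and fragments named L1Md_T were not compared. Its pairs are therefore given under their deposited name, as fragments sharing their sequence with those named LSU.

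Same-name pairs were 22 of 326 in ES-1 (6.75%, interval 4.50 to 10.01), 7 of 134 in ES-2 (5.22%, 2.55 to 10.4), 147621 of 153148 in ES indirect (96.4%, 96.3 to 96.5) and 35 of 319 in MEF (10.97%, 7.995 to 14.9). ES indirect stood 90.4 points above the ES mean of 5.99% ± 1.08 (SD, n = 2), but the gap rested on the one name Rn45s. Among the 2124 ES indirect pairs with no end named Rn45s, 4.19% had the same name (3.42 to 5.13), inside the interval of ES-2 and below that of ES-1. Without Rn45s, and with same-name pairs included, both ends were of the same group in 58.3% of ES-1 and 52.2% of ES-2, with 99.01% of ES indirect and 98.7% of MEF pairs. In ES-1 the most frequent same-name pair was n-R5-8s1 with itself (14 distinct pairs), and in MEF it was n-R5s193 with itself (10 pairs, read 67 times), a 5S gene at chr4:149191841-149191949. Of the 35 same-name MEF pairs, 30 were nested by 10 nt.

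When unlike rRNAs were joined, 5S was almost always RNA1 in the ES libraries. With 5.8S as its partner, 5S came first in 51 of 59 pairs of ES-1 (86.4%, interval 75.5 to 92.97) and in 19 of 22 of ES-2 (86.4%, 66.7 to 95.3). With mmu-mir-2134-4 it came first in 75 of 76 pairs of ES-1 (98.7%, 92.9 to 99.8) and in 35 of 38 of ES-2 (92.1%, 79.2 to 97.3). None of these intervals reached an even split. ES indirect held only 7 pairs of 5S with 5.8S and 10 of 5S with mmu-mir-2134-4, and MEF 1 and 2, too few for an order to be detectable.

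In the ultraviolet libraries, the ligated ends of 5S gathered near the end of the gene as RNA1 and were spread along it as RNA2. As RNA1, 5S ended within 5 nt of its annotated last base (nt 119) in 189 of 298 fragments of ES-1 (63.4%, interval 57.8 to 68.7), 104 of 117 of ES-2 (88.9%, 81.9 to 93.4) and 43 of 79 of MEF (54.4%, 43.5 to 65.0), counting pairs whose fragments both read in the gene's direction. The most used last base was nt 122 in ES-1 (36.6%) and nt 121 in ES-2 (40.2%) and MEF (26.6%), so these ends lay in the run of T printed in capitals above. This held for each partner in ES-1: nt 122 took 32.7% of 171 ends joined to 5S, 47.1% of 51 joined to 5.8S and 38.7% of 75 joined to mmu-mir-2134-4. As RNA2, by contrast, 5S began inside the gene, most often at nt 11 in ES-1 (10.6% of 180) and in ES-2 (11.8% of 68), with nt 40 and nt 54 tied for the next place in both. The partners of 5S also began inside their genes: in ES-1, 5.8S began at nt 66 in 10 of 51 pairs, and mmu-mir-2134-4 began at nt 27 in 13 of 75 pairs. In ES indirect 1291 of 4298 such RNA1 fragments ended near the gene's last base (30.04%, 28.7 to 31.4). This share pools unlike partners, with 214 of 2086 joined to 5S (10.3%) and 1068 of 2203 joined to Rn45s (48.5%), a partner that the other libraries lack by name. Joined to 5S, the share was 60.2% in ES-1, 87.3% in ES-2 and 55.1% in MEF. In ES-1 and ES-2, most 5S fragments that came first were thus joined by their 3′ end to inner positions of the partner.

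**Figure D1:**
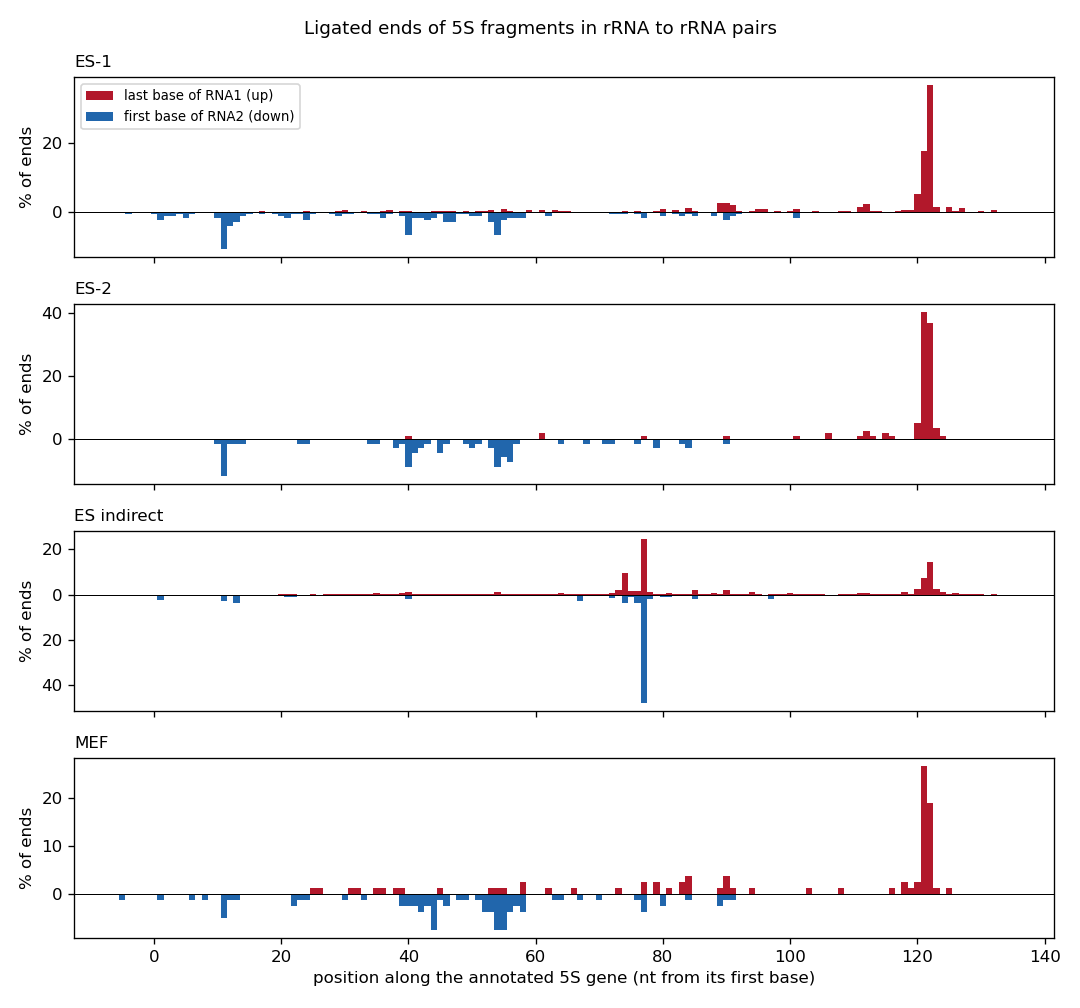
Ligated ends of 5S fragments along the annotated gene in each library, as the percentage of all such ends, with the last base of RNA1 drawn upward and the first base of RNA2 drawn downward (nt from the first base of the gene). RNA1 ends pile up at nt 121 and 122 in all 4 libraries. In ES indirect alone the highest peak lies at nt 77, with 24.4% of RNA1 ends and 47.8% of RNA2 starts.

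In ES indirect, the 2 fragments of 5S to 5S pairs were placed in another way. The first base of RNA2 directly followed the last base of RNA1, within 1 nt, in 1092 of 2086 pairs (52.3%, interval 50.2 to 54.5), against 5 of 171 in ES-1 (2.92%, 1.26 to 6.66), 1 of 63 in ES-2 (1.59%, 0.281 to 8.46) and 3 of 78 in MEF (3.85%, 1.32 to 10.7). The flow cells of ES indirect gave 53.2% and 51.8%. A single join, with nt 77 as the last base of RNA1 and as the first base of RNA2, made up 765 of the 2086 pairs (36.7%), spread over 47 gene names on either side. Because copies of the gene are near-identical, one molecule type can appear under several names; counted once per set of positions within the gene, 302 of 995 position sets abutted (30.4%) and 103 had the nt 77 join. RNA1 lay upstream of RNA2, judged by the middles of the fragments, in 87.3% of these ES indirect pairs (85.8 to 88.7), in 24.6% of ES-1 (18.7 to 31.5), in 3.17% of ES-2 (0.875 to 10.9) and in 53.8% of MEF (42.9 to 64.5). Counted once per position set, the shares were 78.3% in ES indirect, 24.4% in ES-1, 3.23% in ES-2 and 53.8% in MEF. The stretches printed above for this join overlap in the single base at nt 77. For its analysis of structure, the study filtered pairs within a single gene by linker, strand and distance, to limit uncut RNA fragments. That filter was not applied here, to these pairs or to those within the precursor below. The part of uncut fragments in either was not tested.

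The small rRNAs of ES indirect were joined to Rn45s, and they came first there too. Rn45s was RNA1 in 267 of 2470 pairs with 5S (10.8%, interval 9.65 to 12.1), in 37 of 476 with 5.8S (7.77%, 5.69 to 10.5) and in 129 of 544 with mmu-mir-2134-4 (23.7%, 20.3 to 27.5). In the pairs with 5S as RNA1, the 5S fragment again ended most often at nt 122 (22.3% of 2203) and at nt 121 (11.98%). The 5.8S fragment ended at nt 106 in 136 of 439 pairs (31.0%, up to 35.5). On the Rn45s side, the fragment lay in the 18S segment in 1910 of 2203 pairs with 5S (86.7%), 366 of 439 with 5.8S (83.4%) and 360 of 415 with mmu-mir-2134-4 (86.7%). The most used first base of Rn45s joined to 5S was chr17:39984605, nt 1308 of the 18S segment, in 186 pairs (8.44%). The same base was the second most used RNA2 start of ES-1 among pairs within the precursor (1.70%).

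Within the 45S copy on chromosome 17, the name SSU-rRNA_Hsa of the ultraviolet libraries set off the 18S segment, chr17:39983298-39985146 (1849 nt). Before it lay 3366 nt of leader, chr17:39979932-39983297, and after it 637 nt, chr17:39985147-39985783, where the first internal spacer begins. In the ultraviolet libraries, no fragment in the copy had a name of the large subunit. Results given for the precursor therefore cover only this leader, the 18S and the stretch after it. Exact joins among fragments named LSU were not examined. A pseudogene, AY036118, is annotated on the opposite strand at chr17:39985048-39985772. Distinct pairs with both fragments in the copy numbered 49183 in ES-1 and 10354 in ES-2, with 147532 in ES indirect and 2237 in MEF. Each was read on average 1.94, 1.23, 3.41 and 2.31 times. These counts rest on the deposited positions. Among distinct pairs typed rRNA or rRNA_repeat at both ends, placement by sequence put both fragments on the copy in 90527 of ES-1 and 22902 of ES-2. In ES indirect and MEF it did so in 208260 and 2575.

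These pairs were of separate kinds. In whole pairs RNA1 was exactly 90 nt and RNA2 exactly 100 nt, fixed lengths taken here to mark the end of a read and not a ligated end, so that their distances run between read ends. Whole pairs numbered 17643 in ES-1 (35.9%) and 2022 in ES-2 (19.5%), with 71444 in ES indirect (48.4%) and 0 of 2237 in MEF, which allows up to 0.134%. In cut pairs neither fragment had its fixed length, and these numbered 31233, 8272, 74950 and 583. The remaining pairs were nested or had a fixed length at one fragment alone. Whole pairs were read more often, 2.89, 1.94 and 5.76 times each in ES-1, ES-2 and ES indirect, against 1.40, 1.06 and 1.20 for cut pairs. Whole pairs were also compact: the median length from the outermost base of one fragment to that of the other was 204, 155 and 212 nt, and RNA1 lay upstream of RNA2 in 89.4%, 84.4% and 93.5% of them. The part of uncut RNA fragments in whole pairs was not tested.

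The order of RNA1 and RNA2 turned on the kind of pair. Over all pairs recorded in the sense direction, RNA1 lay upstream in 62.7% of ES-1 (interval 62.3 to 63.1) and 58.1% of ES-2 (57.1 to 59.04), with 67.0% of ES indirect (66.8 to 67.3) and 52.5% of MEF (48.1 to 56.8). ES indirect was 6.62 points above the ES mean of 60.4% ± 3.27 (SD, n = 2). The difference was 20.9 with every line counted, -1.20 with coordinates in steps of 5 nt and 4.31 without ES-2. Among sense pairs placed on the copy by sequence, RNA1 lay upstream in 54.0% for the ES mean, 59.4% of ES indirect and 41.7% of MEF. The difference was then 5.49. In cut pairs the direction turned: RNA1 lay upstream in 47.6% of ES-1 (47.1 to 48.2) and 50.9% of ES-2 (49.9 to 52.0), with 42.1% of ES indirect (41.7 to 42.4) and 51.3% of MEF (47.2 to 55.3). In cut and sense pairs ES indirect was 7.26 points below the ES mean (difference -7.26), and MEF gave 52.4%. By flow cell, cut pairs gave 48.1% and 47.2% for ES-1, 50.3% and 51.4% for ES-2, and 42.3% and 42.6% for ES indirect. The reversed order, with the 3′ end of a downstream fragment joined to the 5′ end of an upstream one, was thus the commoner order for cut pairs in ES-1 and ES indirect.

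Distances followed the same split. Over all sense pairs, whole pairs included, so that read ends stand in for ligated ends there, the last base of RNA1 and the first base of RNA2 lay over 200 nt apart in 45.1% of ES-1 (44.7 to 45.5) and 55.6% of ES-2 (54.6 to 56.6), with 36.0% of ES indirect (35.7 to 36.2) and 57.6% of MEF (53.3 to 61.8), a difference of -14.4 points for ES indirect from the ES mean of 50.4% ± 7.43 (SD, n = 2). That difference was -27.3 with every line counted, -6.93 with coordinates in steps of 5 nt and -9.12 without ES-2. In cut pairs, which leave whole pairs out, the shares were 64.9%, 67.7%, 60.8% and 56.4%, and the median number of bases between the ends was 381, 402.5, 319 and 259 nt. Over all segments, order moved with span in every ES cell library. Among cut pairs spanning up to 450 nt, RNA1 was upstream in 38.9% of ES-1, 42.4% of ES-2 and 34.8% of ES indirect, and among those spanning more it was upstream in 56.9%, 59.6% and 52.1%. The segments of ES indirect differed in this. In its 18S pairs RNA1 was upstream in 33.1% of those with ends up to 200 nt apart and in 37.3% of the 28341 further apart, so the reversed order led at both distances. In its leader pairs the corresponding shares were 71.2% and 52.2%, and after the 18S 80.9% and 4.45%. ES indirect had its highest shares per bin at RNA2 starts 100 to 200 nt (17.5% of cut pairs) and 200 to 500 nt (16.96%) upstream of the RNA1 end, where ES-1 had 10.5% and 12.7% and ES-2 7.92% and 12.6%. The bins were of unequal width, with the narrowest next to 0. With RNA2 wholly upstream, the distance also spans both fragments. Their median lengths in cut pairs were 58 and 63 nt in ES indirect, 44 and 53 in ES-1, and 36 and 37 in ES-2.

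**Figure D2:**
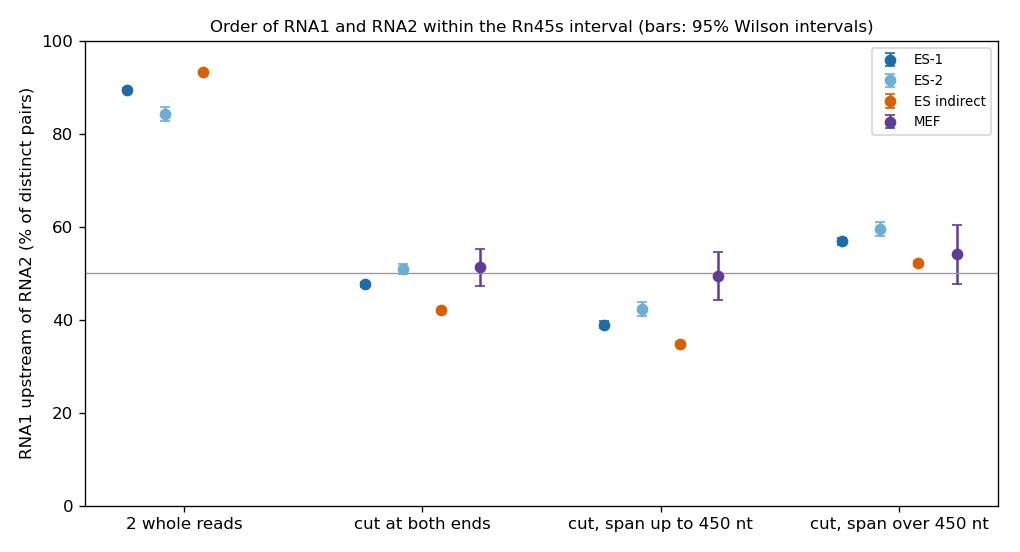
Share of distinct pairs with RNA1 upstream of RNA2 within the 45S copy, in percent, for whole pairs and for cut pairs in all and by span, with a point per library, bars for 95% Wilson intervals and a line at an even split. Whole pairs lie at 84.4% to 93.5%, and cut pairs spanning up to 450 nt lie below the line in ES-1, ES-2 and ES indirect, with the interval of MEF on it.

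**Figure D3:**
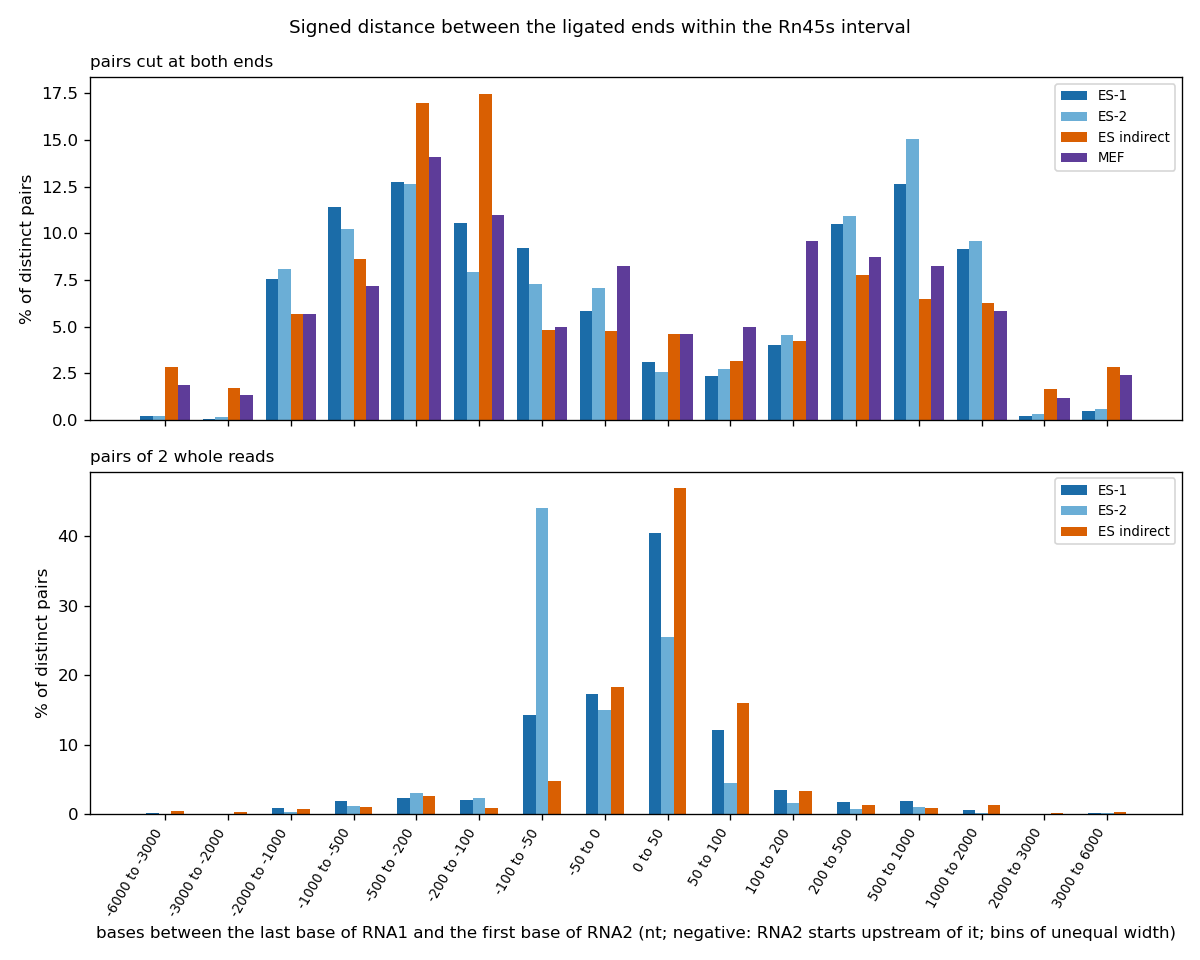
Signed distance between the last base of RNA1 and the first base of RNA2 within the 45S copy, as the percentage of distinct pairs in bins of unequal width (nt; negative where RNA2 starts upstream), for cut pairs (top, 4 libraries) and whole pairs (bottom, 3 libraries). Whole pairs gather within 100 nt on either side of 0, and cut pairs of ES indirect peak at 17.5% between 100 and 200 nt upstream.

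By segment, the leader set ES indirect and MEF apart from ES-1 and ES-2. At least 1 end lay in the leader in 1.35% of cut pairs of ES-1 (1.23 to 1.49) and 1.92% of ES-2 (1.65 to 2.24), with 25.3% of ES indirect (25.03 to 25.7) and 29.5% of MEF (25.9 to 33.3). Cut pairs joining 18S to 18S were 98.2%, 96.9%, 67.0% and 62.3% of the total. ES indirect and MEF differ in cell type, crosslink and depletion kit and shared their flow cells. Segments joined themselves more often than the product of their shares among RNA1 and RNA2 ends gives: leader to leader made up 14.7% of ES indirect cut pairs, 3.67 times that product, and the segment after the 18S joined itself in 4.27%, 9.31 times the product. Pairs of the leader with the 18S ran under it in ES indirect, at 0.315 times the product with the leader as RNA1 and 0.299 times with the 18S as RNA1. These ratios were nearer to an even one in ES-1 (0.863 and 0.736) and ES-2 (0.810 and 0.599). Leader to leader stood at 27.1 and 27.4 times the product there, on 43 and 24 pairs.

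Leader and 18S, which lie on one precursor until it is cleaved, were joined in 377 cut pairs of ES-1 and 134 of ES-2, with 6756 of ES indirect and 37 of MEF. The leader, upstream on the precursor, was RNA1 in 68.2% of them in ES-1 (63.3 to 72.7) and 74.6% in ES-2 (66.6 to 81.2), with 52.0% in ES indirect (50.9 to 53.2) and 62.2% in MEF (46.1 to 75.9). The intervals of ES-1 and ES-2 lay above that of ES indirect, and the interval of MEF spanned an even split. Within the 18S, RNA1 was upstream in 47.4% of cut pairs of ES-1 and 50.8% of ES-2, with 35.5% of ES indirect and 46.3% of MEF. Within the leader the order ran the other way in ES indirect, with RNA1 upstream in 60.9% of 11035 pairs (59.98 to 61.8). It was 69.4% of 124 leader pairs in MEF, and ES-1 and ES-2 had only 43 and 24 such pairs.

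**Figure D4:**
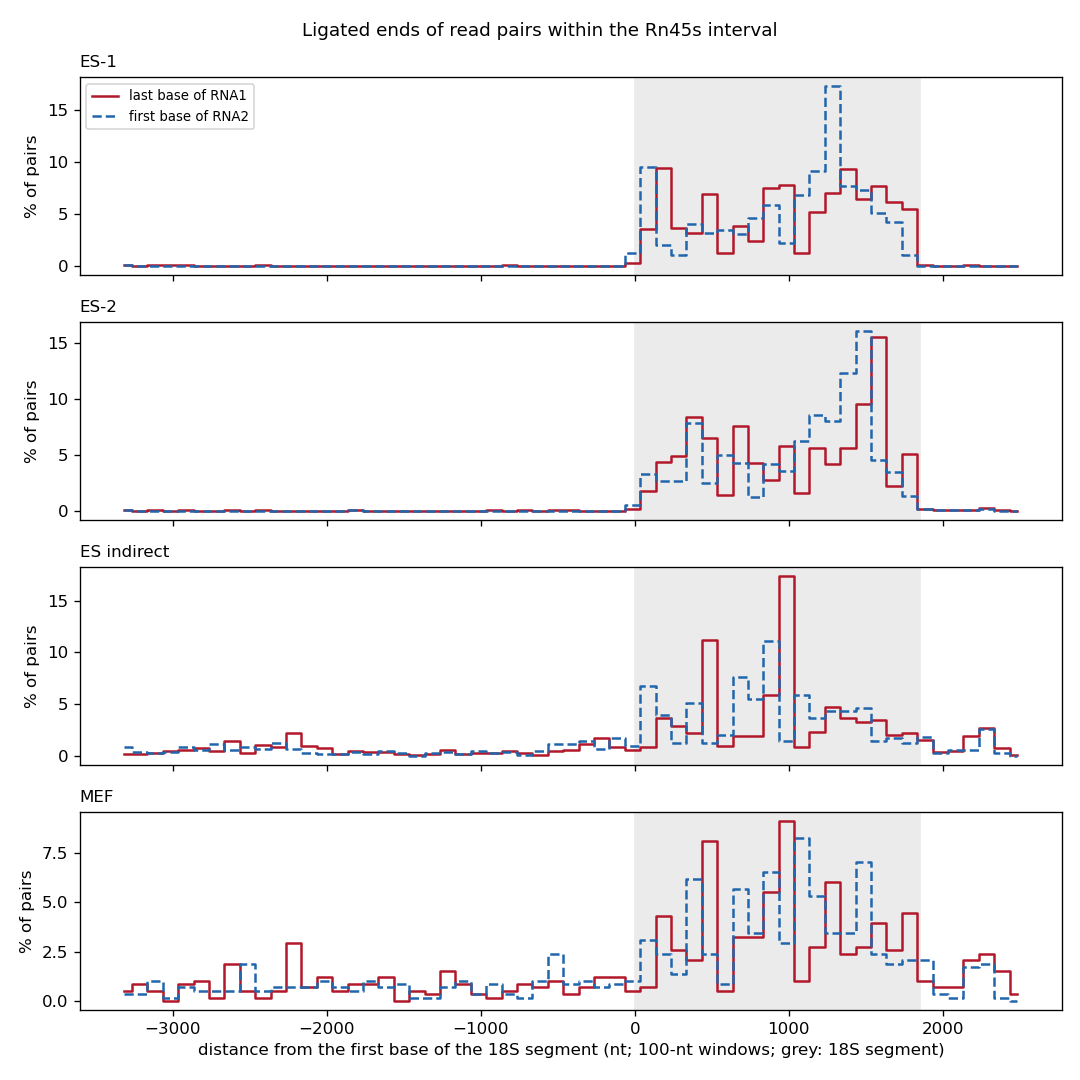
Last base of RNA1 and first base of RNA2 of cut pairs along the 45S copy in windows of 100 nt, as the percentage of each library's cut pairs. Ends of ES-1 and ES-2 lie almost wholly in the 18S segment, and ES indirect and MEF also have ends along the leader and after the 18S.

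Inside the 18S, the leading pairs of 100-nt windows of ES-1 and of ES-2 differed from the one that led in both ES indirect and MEF. By the mean of ES-1 and ES-2, the leading cut pairs joined windows near nt 1384 and nt 1484 of the segment (window centres) to themselves or to each other. The order differed between these libraries: in ES-1 the window near nt 884 with itself (682 pairs, 2.18%) and nt 1284 with nt 1184 (647 pairs, 2.07%) came just after nt 1384 with itself, and nt 1484 with itself led in ES-2 alone. Window chr17:39984732-39984831 joined itself in 413 pairs of ES-1 (1.32%) and 304 of ES-2 (3.68%), with 229 of ES indirect (0.306%) and 6 of MEF (1.03%). This was the largest fall in ES indirect among window pairs with at least 20 distinct pairs, by 2.19 points from the ES mean of 2.499% ± 1.66 (SD, n = 2). Window chr17:39984632-39984731 joined itself in 2.25%, 1.63% and 0.571% of cut pairs in ES-1, ES-2 and ES indirect, respectively. The fall at the first window was little larger than the spread of the ES libraries, and the fall at the second was over 3 times their SD of 0.438.

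In ES indirect the leading cut pairs had RNA1 centred near nt 984. RNA1 in chr17:39984232-39984331 with RNA2 in the window before it, chr17:39984132-39984231, made up 3444 pairs (4.595%), against 284 in ES-1 (0.909%), 22 in ES-2 (0.266%) and 16 in MEF (2.74%), the largest rise over the ES mean. The same window pair led in MEF. The same RNA1 window with RNA2 in chr17:39983932-39984031 made up 2.40% of ES indirect, 0.138% of ES-1, 0.169% of ES-2 and 1.03% of MEF. In both, RNA2 lay upstream of RNA1. Outside the 18S, RNA1 in chr17:39985432-39985531 with RNA2 in the next window made up 1311 pairs of ES indirect (1.75%) and 7 of MEF (1.20%), with 0 in ES-1 and ES-2, which allows up to 0.00961% and 0.0363%. The RNA1 window near nt 984 held 17.4% of all RNA1 ends of ES indirect cut pairs.

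**Figure D5:**
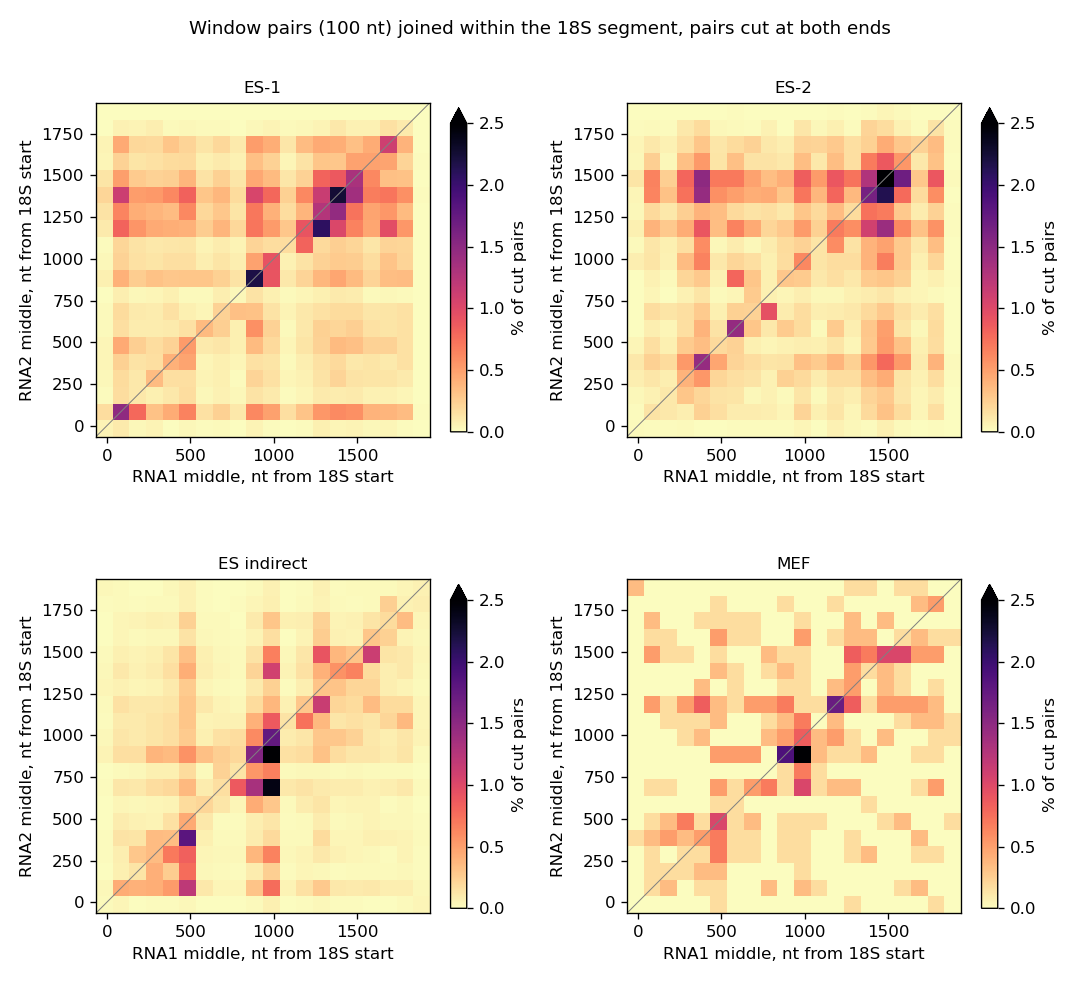
Maps of cut pairs in 100-nt windows of the 18S segment for the 4 libraries, with the middle of RNA1 on the horizontal and of RNA2 on the vertical axis (nt from the first base of the 18S segment) and the percentage of cut pairs as colour, capped at 2.5%. The highest fields of ES-1 and ES-2 lie on or beside the diagonal, where RNA1 and RNA2 share a window, and the highest pair of fields of ES indirect lies in the column of the RNA1 window near nt 984, below the diagonal.

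Maps of window pairs were compared as a description, with Pearson's r over windows that share libraries, depth and neighbours. Over all pairs, ES-1 and ES-2 gave r = 0.773 (1031 window pairs), and the ES mean and ES indirect gave 0.489. In cut pairs the values were 0.647 and 0.476. The highest r of cut pairs was that of MEF with ES indirect, 0.711, with 0.445 for MEF with ES-1 and 0.298 with ES-2. By rank (Spearman's rho), ES-1 with ES-2 stood higher, at 0.702 against 0.416 for MEF with ES indirect. Over all pairs, with nested pairs included, MEF gave r = 0.252 with ES indirect, 0.343 with ES-1 and 0.364 with ES-2. Pairs within one window or between neighbouring windows made up 30.6% of the cut pairs for ES-1 and 27.5% for ES-2, with 35.4% in ES indirect and 35.7% in MEF. Between the profiles of RNA1 ends and RNA2 starts, r over 59 windows was 0.697 in ES-1 and 0.718 in ES-2. It was 0.469 in MEF and lowest in ES indirect, at 0.290. The windows cover the whole copy, and ends of ES-1 and ES-2 lay almost wholly in the small-subunit segment. The share of ends in each segment therefore enters these values. Whether the profiles were alike within a segment was not tested.

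Single bases stood out at these ends. The most used RNA1 end of ES-1 was chr17:39983447, nt 150, in 504 cut pairs (1.61%), and it took 0.895% in ES-2, 0.0494% in ES indirect and none in MEF. In ES-2 it was chr17:39984848, nt 1551, in 361 pairs (4.36%), against 1.36% in ES-1, 0.0640% in ES indirect and 0.172% in MEF. In ES indirect it was chr17:39984312, nt 1015, in 3114 pairs (4.15%), against 0.371% in ES-1, 0.302% in ES-2 and 2.40% in MEF. These are the 3 RNA1 ends whose bases are printed above. At the exact base, the ends of ES-1 and ES-2 were shared between these libraries and rarer in ES indirect, and the end of ES indirect was rarer in both. The neighbouring bases were more alike: chr17:39983446 took 0.692% in ES-1, 0.459% in ES-2 and 0.516% in ES indirect, and chr17:39984311 took 0.660%, 0.556% and 0.646%. Among RNA2 starts, chr17:39984605 (nt 1308) was common to all, with 1.70% in ES-1 and 0.870% in ES-2, with 1.30% in ES indirect and 0.858% in MEF.

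Most exact joins of an RNA1 last base to an RNA2 first base were seen in fewer than 3 distinct pairs in every library. The joins that recurred held a larger share of the pairs in ES indirect than under ultraviolet light. The 31233 cut pairs of ES-1 held 28293 joins, and 454 joins seen in at least 3 distinct pairs held 5.28% of the pairs. In ES-2 such joins held 3.26% of pairs, in ES indirect 27.7% (2948 of 53129 joins) and in MEF 0.515%. The number of cut pairs differed between libraries, and its part in these shares was not tested. The leading join within the 18S in ES indirect was chr17:39984312 to chr17:39984153 in 140 pairs, seen in 1 pair of ES-1, 0 of ES-2 and 1 of MEF. In ES-1 it was chr17:39983448 to chr17:39984605 in 13 pairs, with RNA2 1156 nt downstream. ES-1 and ES-2 shared 881 joins, 3.11% of those of ES-1 and 11.3% of those of ES-2. With ES indirect, which held more joins, ES-1 shared 1865 (6.59% of those of ES-1) and ES-2 428 (5.50% of those of ES-2).

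Fragments that abutted, with at most 1 base between their ends or shared by them, formed a further kind of ES indirect pair. They were 131 cut pairs of ES-1 (0.419%, interval 0.354 to 0.497) and 47 of ES-2 (0.568%, 0.428 to 0.755), with 2565 of ES indirect (3.42%, 3.29 to 3.55) and 9 of MEF (1.54%, 0.814 to 2.91). In ES indirect RNA1 ended in the leader in 1188, in the 18S in 683 and after it in 694. One site, chr17:39985544, in the spacer after the 18S, held 437 of the 2565 (17.04%), and it held 2 of the 9 in MEF. It was at 0 in ES-1 and ES-2, which allows up to 0.00961% and 0.0363% of their cut pairs. Among pairs with both ends after the 18S, 21.7% abutted in ES indirect. The bases on either side are chr17:39985515-39985544 and chr17:39985544-39985573 on the + strand. They are shown because this join was the most frequent among cut pairs in the part of the precursor covered here. It held 333 distinct pairs of ES indirect with the base at chr17:39985544 on both sides.
Last bases of RNA1 at the abutting site: cccatccccgccgcggctctGGCTTTTCTA
First bases of RNA2 at the abutting site: ACGTTGGCTGgggcggttgtcgcgtgtggg

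MEF resembled ES indirect in its leading RNA1 ends in cut pairs of the precursor, but not in the order of the fragments, which at 51.3% with RNA1 upstream lay nearer to ES-1 and ES-2 than to ES indirect, and at 46.3% did so within the 18S. Its leading RNA1 ends were chr17:39984327 (15 of 583 pairs, 2.57%), chr17:39984312 (14 pairs, 2.40%) and chr17:39983793 (7 pairs, 1.20%), which in ES indirect held 3.14%, 4.15% and 2.95%. The same bases held 0.106%, 0.371% and 0.224% in ES-1 and 0.0484%, 0.302% and 0.0604% in ES-2. The single most used RNA2 start differed: chr17:39984417, the most used in MEF (1.37%), held 0.0921% of cut pairs in ES indirect, against 0.397% for ES-1 and 0.206% for ES-2, while chr17:39984223, the most used in ES indirect (1.99%), was at 0 of 583 in MEF. Tied next in MEF, with 5 pairs each (0.858%), were chr17:39984498, chr17:39984605 and chr17:39984810. They held 1.18%, 1.30% and 0.474% in ES indirect. In ES-1 they held 0.746%, 1.70% and 0.467%, and in ES-2 0.278%, 0.870% and 1.74%. The profile of RNA1 ends gave r = 0.906 between MEF and ES indirect and 0.796 between MEF and ES-1 (59 windows). In 100-nt windows the RNA2 starts of MEF gave 0.847 with ES indirect, 0.778 with ES-2 and 0.689 with ES-1. These profiles also cover the whole copy, so the share of ends in each segment enters the values of r. Of the 578 joins of MEF, 91 were also in ES indirect (15.7% of MEF, 0.171% of the 53129 of ES indirect). ES-1 shared 19 (3.29% of MEF, 0.0672% of its 28293) and ES-2 shared 10 (1.73% of MEF, 0.129% of its 7778). Only 3 pairs had identical coordinates at both fragments in MEF and ES indirect. These libraries shared both flow cells, and the part of that in their likeness was not tested.

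The order of the subunits was close to even in ES-1 and ES-2, and in ES indirect it turned on how the 18S was recognised. Over fragments named LSU or SSU (with Rn45s fragments in the 18S segment counted as SSU in ES indirect), LSU was RNA1 in 52.8% of LSU–SSU pairs of ES-1 (interval 52.6 to 53.0) and 51.8% of ES-2 (51.5 to 52.1), with 51.7% of ES indirect (51.4 to 52.0) and 44.9% of MEF (43.5 to 46.4). ES indirect differed from the ES mean of 52.3% ± 0.711 (SD, n = 2) by -0.59 points, less than the SD of the ES libraries. When the 18S was recognised by the name SSU only, LSU was RNA1 in 32.2% of ES indirect pairs (31.6 to 32.7), far from an even split. With the 18S segment counted as SSU, the interval of MEF, from 4270 pairs, lay below an even split and those of the others above it. Neither ES-1 nor ES-2 had an order of subunits as one-sided as the order of 5S with its partners.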

How the data were processed

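The deposited files hold no measured value: per the methods of the study, each line is 1 read pair, with the place, strand, sequence, type and name of RNA1 and RNA2 as the authors assigned them (unit: other). The authors removed duplicates by place and barcode, located the linker and kept fragments with 1 place in the genome. The builds NCBIM37 and mm9 and the tool TopHat2 2.1.1 are named in the submitters' processing notes. Members and lists were chosen with earlier results of these data known.

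Per the methods, lines with equal coordinates that remain differ in their random barcode. They were collapsed here all the same, which sets aside molecules the study would count, and counting every line is the alternative. Distances were read along the + strand of the 45S copy. Whole, cut and nested pairs, and the use of position in place of name within the 45S copy, were chosen after seeing the data. The latter departs from the fixed design, which compared pairs of the same name. Named segments were, by rule, names with at least 1% of a library's member pairs, the 10 leading window pairs of the ES mean, the 5 of ES indirect and of MEF, and the 5 largest rises and falls, and sequences were shown for ends used most often within them. Intervals are 95% Wilson intervals and cover only the error of counting. A count of 0 was given the limit of 3 counts. Libraries were compared by description and no test was run, since exact permutation of 2 libraries against 1 could not pass a threshold of 0.05, and ES-1 and ES-2 are 2 assays on one line, so their spread may be technical. The depth was 3230403, 1312314, 3302146 and 474526 read pairs in the order ES-1, ES-2, then ES indirect and MEF. Python 3.11.15, pandas 2.3.3, NumPy 2.4.6, SciPy 1.17.1, matplotlib 3.10.9 and minimap2 2.31 were used. The code was tested on simulated data. The 2 brain libraries were not used here.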

Additional observations from a re-analysis of the deposited data

How the results depend on the processing

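Differences are between ES indirect and the ES mean, in percentage points. The difference in the share of rRNA pairs (9.24) was 15.4 with every line counted, 10.9 with fragments of at least 20 nt without linker pieces, 10.8 where the sequence matched its place, 6.40 with coordinates in steps of 5 nt, 9.31 and 10.5 on the first and second flow cells, and 3.59 with rRNA_repeat counted as rRNA. Leaving out ES-1 or ES-2 gave 9.24 in both cases. The difference in same-name pairs (90.4) was 91.6 with every line counted, 88.7 in steps of 5 nt and 13.2 with rRNA_repeat, and 89.6 to 91.2 when one ES library was left out. The LSU-first difference (-0.59) changed sign with fragments of at least 20 nt (0.0178), was -20.2 when 18S was known by the name SSU only, and was -1.10 to -0.0904 when one ES library was left out. The difference in pairs with RNA1 upstream (6.62) was 20.9 with every line counted and 9.91 on the second flow cell. It changed sign in steps of 5 nt (-1.20), in cut pairs (-7.26) and without whole pairs (-7.32), and was 4.31 to 8.93 when one ES library was left out. The difference in pairs over 200 nt apart (-14.4) was -27.3 with every line counted, -6.93 in steps of 5 nt, -5.53 in cut pairs and -5.50 without whole pairs. It changed sign to 35.9 by deposited name, under which ES-1 and ES-2 hold no Rn45s pair, and was -19.6 to -9.12 when one ES library was left out. The map correlation (0.489) was 0.607 with windows of 200 nt and 0.374 with every line counted, and 0.389 to 0.538 when one ES library was left out. Cut pairs, whole pairs, rRNA_repeat, the name SSU and the deposited name were alternatives added after seeing the data. Except where the construction shows it, the cause was not tested. Beside those that leave out an ES library, the other 28 values kept their direction and moved by less than the SD of the ES libraries.

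No paired analysis was possible because ES indirect and MEF have 1 library each, so that the groups compared share fewer than 2 replicate numbers. ES-2 and MEF hold 134 and 319 member pairs, and small differences between name pairs were not detectable there.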
